A study of Mus musculus with 18 samples.

Results

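The genes examined were the D-type cyclins (Ccnd1, Ccnd2, Ccnd3), their kinases (Cdk4, Cdk6) and 5 inhibitors (Cdkn1a, Cdkn1b, Cdkn1c, Cdkn2c, Cdkn2d). Dimethylation of histone H3 lysine 79 (H3K79me2) over them was measured in naive mouse cells and cultured Th2 and Th1 CD4 T cells. The 10 genes were chosen by name, with earlier results of these data known. They are part of 21631 protein-coding genes measured on chromosomes 1 to 19 and X. For each gene the measure was the percent of the gene body that lay under peaks in each of 9 peak lists, 1 list per chromatin immunoprecipitation library, with 3 libraries each of Th2, Th1 and naive cells. Of the 10 genes, 6 differed between at least 2 libraries and were tested. Ccnd1 and Cdkn1c were at 0% and Cdkn1b and Cdkn2d at 100% in every library, so these 4 genes had no difference to test.

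All 3 groups carry the genotype label WT. To make Th2 cells, enriched CD4 T cells were held for 4 days on plate-bound antibodies to CD3 and CD28, in medium that contained IL-4, anti-IFNg and IL-2, and cells of 4C13R mice that expressed the IL-4 AmCyan or the IL-13 dsRed reporter were sorted. Th1 cells came from the same kind of culture, in which IL-12, anti-IL-4 and IL-2 were present, and were sorted by the reporter of IFNg-YFP mice. Naive cells had no culture and were sorted from WT spleens as CD44- CD62L+ cells. Both cultured groups were therefore stimulated through the antigen receptor and selected for cytokine expression. Culture, stimulation, reporter allele and cell type changed together between the cultured and the naive cells and cannot be told apart. The labels state neither the age of the mice nor whether replicates are separate animals. All p-values below therefore rest on scatter between libraries, with 3 libraries per group, and part or all of that scatter may be technical. The limma fit pools this scatter over the 3 groups and moderates it with that of all tested genes. For a gene that hardly varies within groups, such as Cdkn1a, the p-value therefore leans in part on the scatter of other genes.

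In the G1 phase of the cell cycle, D-type cyclins bind CDK4 or CDK6, and the active kinases phosphorylate the retinoblastoma protein, which releases E2F factors for the genes of DNA synthesis. Inhibitors of the INK4 family bind CDK4 and CDK6 directly, whereas inhibitors of the CIP/KIP family bind cyclin and kinase complexes more broadly. A resting naive T cell is held before this step and passes it when its antigen receptor and CD28 are engaged. H3K79me2 is set by DOT1L and is known to lie over the transcribed part of active genes, most densely towards their 5′ ends. It was measured here, and transcript levels were not.

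The peak lists held 45894 to 51854 peaks in Th2 libraries, 41504 to 46085 in Th1 libraries and 38026 to 40455 in naive libraries. They covered 232 to 249.9 Mb of the genome in Th2 libraries and 217 to 240.1 Mb in Th1 libraries, against 276 to 285 Mb in naive libraries. Over the 11600 tested genes the median difference in percent covered was -5.50 points in Th2 against naive cells and -5.54 points in Th1 against naive cells. The lists give no read depth, which is therefore unknown, so no counting interval could be set. In a bulk library, fewer cells that carry the mark and less of the mark per cell cannot be told apart.

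Lists of marker genes were read in the same way. The 8 T lineage genes were covered in every library. Ifng was covered at 100% in Th1 cells, 2.77% in Th2 cells and 0% in naive cells, and Il4 at 100% in Th2 cells, 23.0% in Th1 cells and 0% in naive cells. Both are genes used for the sorts. The CD8 genes Cd8a and Cd8b1 had a summed level of 24.8 to 39.2 points in Th2 libraries and 7.55 to 11.9 points in Th1 libraries. In each naive library the sum was 200 points, with both genes at 100%. Of 5 B cell genes, Ms4a1, Pax5 and Blk were at 0% in all libraries, and the list summed to 100 points in each Th2 library, 100 points in each Th1 library and 136 to 184 points in naive libraries. Cd79a was at 100% in all libraries. Cd79b was at 0% in the Th2 and Th1 libraries and at 43.0, 84.0 and 36.0% in naive libraries. All 4 myeloid genes were at 0% in all libraries. Of 3 NK genes Ncr1 was at 0% in all libraries, and the list summed to 85.1 to 102 points in Th2, 137 to 155 points in Th1 and 120 to 136 points in naive libraries. The other NK genes went different ways, with Klrk1 at 2.60% in Th2, 99.8% in Th1 and 26.9% in naive cells, and Tyrobp at 93.0% in Th2, 44.97% in Th1 and 100% in naive cells on average. The part of any other cell type in the results was not tested.

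Among the 10 genes, 1 changed between cultured and naive cells by the rule used for calls, an adjusted p under 0.05 in limma with a difference of at least 25 points. Cdkn1a was higher in Th2 than in naive cells and higher in Th1 than in naive cells, and no member was lower. Over all tested genes, 19.6% were called in Th2 against naive cells (494 higher, 1781 lower, with 4.26% called higher and 15.4% lower), and 20.7% in Th1 against naive cells (508 higher, 1895 lower, with 4.38% called higher and 16.3% lower). These splits depended on the scaling. With the covered length made equal between lists they were 757 higher and 1092 lower in Th2, and 819 higher and 1030 lower in Th1. With libraries centred to a common mean they were 739 higher and 1118 lower in Th2, and 736 higher and 1175 lower in Th1. Both comparisons used the same 3 naive libraries, so they are not independent of each other.

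Without the minimum of 25 points, 3 members were higher in Th2 than in naive cells (Cdk4, Cdk6 and Cdkn1a) and 1 was lower (Ccnd3), beside 12.1% of all tested genes higher and 47.4% lower. Under the same looser rule the same 3 members were higher in Th1 than in naive cells and none was lower, beside 11.8% higher and 47.9% lower over all tested genes. Counted by libraries that did not overlap, 3 members lay higher and 1 lower in Th2 than in naive cells, beside 14.7% of all tested genes higher and 53.1% lower. In Th1 against naive cells 3 lay higher and 0 lower, beside 14.2% higher and 52.4% lower. The median difference over the 6 tested members was 3.99 points in Th2 and 2.48 points in Th1, each against naive cells. Between Th2 and Th1 cells no member was called by limma, beside 3.64% of all tested genes called.

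Of the 10 members, 7 were covered over at least 75% of their length in all 9 libraries, which held for 11.5% of all protein-coding genes. At the other end Ccnd1 and Cdkn1c were at 0% in all 9 libraries, as were 43.8% of all genes, and Cdkn1a was at 0% in the naive libraries.

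**Figure D1:**
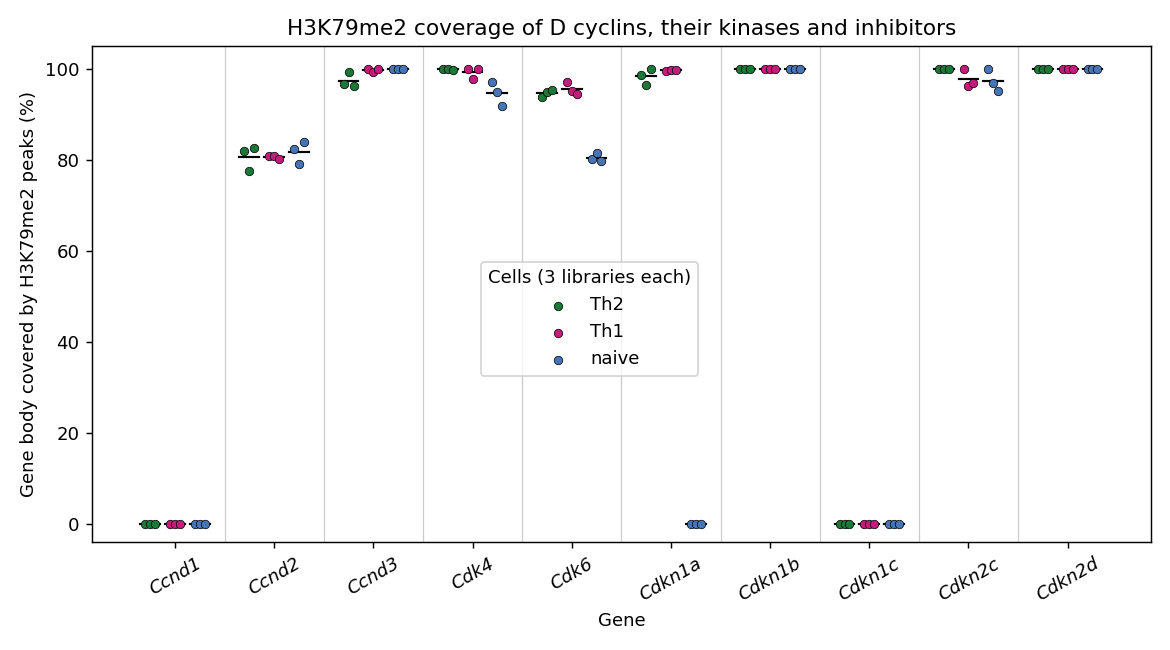
Percent of the gene body under H3K79me2 peaks for each of the 10 genes, 1 point per library, with Th2, Th1 and naive libraries side by side and a bar at each group mean. Cdkn1a is near 100% in Th2 and Th1 libraries and at 0% in naive libraries, Cdk6 lies lower in naive libraries than in the others, and Ccnd1 and Cdkn1c are at 0% throughout.

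The CIP/KIP inhibitors fell into 3 patterns, 1 for each gene. Cdkn1a, which encodes p21, an inhibitor of cyclin and CDK complexes that is a classic target of p53, lies on the plus strand at chr17:29090979-29100722 of GRCm38.p6, the assembly of mm10, and overlaps no other protein-coding gene. Its body was covered at 98.6, 96.4 and 100% in the 3 Th2 libraries, 99.5, 99.8 and 99.8% in the 3 Th1 libraries, and 0% in all 3 naive libraries. Each cultured library thus had a peak over nearly the whole gene and no naive library had one there. At 0% no peak was called, which does not show that the mark was absent. The means were 98.3 ± 1.82% in Th2, 99.7 ± 0.146% in Th1 and 0 ± 0% in naive cells (SD, n = 3 each).

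Cdkn1a rose by 98.32 points in Th2 cells (adjusted p = 2.16e-09, limma) and by 99.72 points in Th1 cells (SE 1.28, adjusted p = 2.02e-09, limma), each against naive cells. The difference of -1.40 points between Th2 and Th1 cells did not pass the test (adjusted p = 0.571, limma). Under the 20 alternatives run, the gene stayed called in both comparisons with naive cells, with differences of 84.29 to 106.0 points in Th2 and 85.25 to 108 points in Th1. The values above 100 points came from centring the libraries.

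In each cultured library a single peak spanned Cdkn1a. It measured 13.7, 12.3 and 12.7 kb in Th2 libraries and 12.6, 14.1 and 12.7 kb in Th1 libraries. The authors' fold enrichment of that peak was 6.61, 6.38 and 7.79 in Th2 libraries and 9.28, 7.51 and 7.09 in Th1 libraries. This fold is a property of a peak within its own list and gives no comparison between lists. The nearest peak of the naive lists ended 40.39, 40.04 and 40.46 kb from the gene.

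The annotation gives 2 starts of Cdkn1a, and the promoter window of each, from 250 bases before to 50 after the start, is shown because both windows were covered at 100% in all 6 cultured libraries and at 0% in all 3 naive libraries. Sequences are from RefSeq (GRCm38.p6). In the upstream window, at chr17:29090729-29091028 on the plus strand, the capitals mark ACATGT, a core of the half-site bound by p53 that was looked for after the sequence had been read. It occurs at 49 and 39 bases before the start.
Cdkn1a upstream start: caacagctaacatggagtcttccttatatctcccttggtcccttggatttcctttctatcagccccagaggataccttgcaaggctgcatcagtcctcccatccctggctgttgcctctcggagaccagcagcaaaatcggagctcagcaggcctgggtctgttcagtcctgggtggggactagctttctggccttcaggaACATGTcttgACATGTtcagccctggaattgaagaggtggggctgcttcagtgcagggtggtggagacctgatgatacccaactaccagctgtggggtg
In the downstream window, at chr17:29093519-29093818 on the plus strand, the capitals mark GGGCGG, the GC box bound by SP1, at 104 and 46 bases before the start.
Cdkn1a downstream start: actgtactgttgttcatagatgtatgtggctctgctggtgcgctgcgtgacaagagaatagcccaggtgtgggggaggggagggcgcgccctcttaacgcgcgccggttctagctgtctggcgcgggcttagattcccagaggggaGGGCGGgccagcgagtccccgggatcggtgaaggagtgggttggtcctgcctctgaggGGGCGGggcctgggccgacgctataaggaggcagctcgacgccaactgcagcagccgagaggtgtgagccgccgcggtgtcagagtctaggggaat
Both motifs were searched on both strands, and ACATGT reads the same on each. Among 21045 promoter windows of the same length, 4.07% hold ACATGT at least once and 0.185% hold it at least 2 times, while 46.7% hold GGGCGG at least once and 26.7% at least 2 times. The match of letters describes these windows and shows no binding. Promoter entries were found for 7 of the 10 members, in 10 windows, and no other window of a member holds ACATGT.

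The marked stretch around Cdkn1a extended upstream of the gene. The 47.606 kb between the end of Srsf3, a splicing factor gene, and the start of Cdkn1a were covered at 91.5, 91.5 and 92.8% in Th2 libraries, 96.3, 94.0 and 87.3% in Th1 libraries, and 13.1, 12.6 and 11.7% in naive libraries. Trp53cor1, the long noncoding RNA gene known as lincRNA-p21, lies in that stretch at chr17:29057474-29079126. It was covered at 100% in each Th2 library, at 100, 100 and 95.3% in Th1 libraries, and at 0% in each naive library. Srsf3 itself was at 100% in all 9 libraries, and Rab44, the next gene downstream, was at 0% in all 9. These noncoding neighbours were chosen after their values were seen and were not tested.

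**Figure D2:**
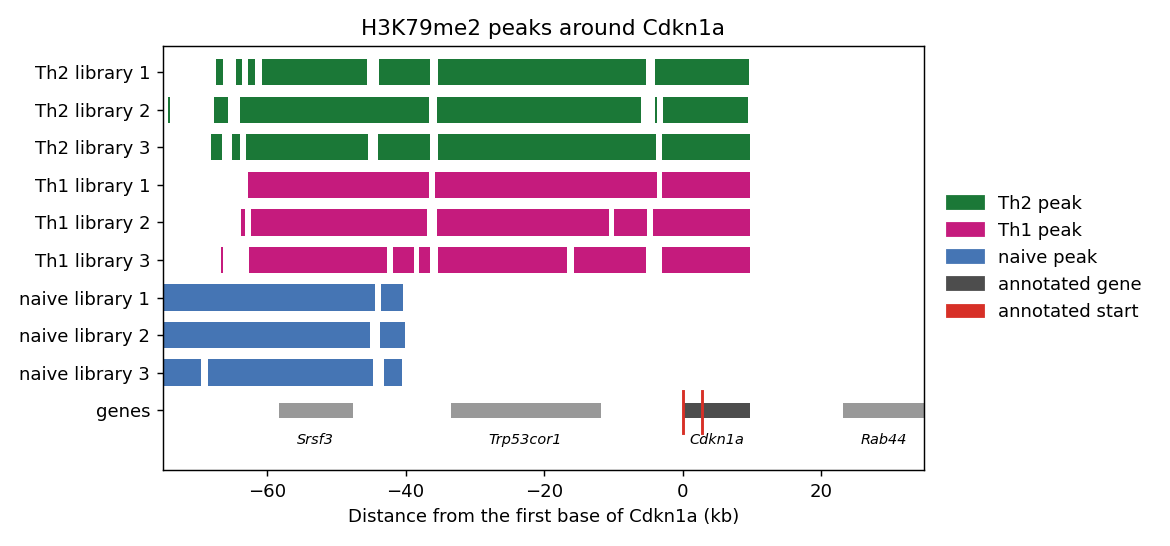
H3K79me2 peaks in each library over Cdkn1a and its neighbours, drawn against the distance in kb from the Cdkn1a start, with Th2 libraries above Th1 libraries and naive libraries at the bottom. Peaks fill Cdkn1a and Trp53cor1 in the Th2 and Th1 libraries, whereas naive peaks end 40.04 to 40.46 kb from Cdkn1a, near Srsf3.

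By a rule on likeness, the 3 genes whose percent covered differed least from that of Cdkn1a over the 9 libraries, among 11594 other tested genes, were Kctd11, Ctla2a and Bhlhe40. Their root mean square differences from it were 0.533, 0.8497 and 1.16 points. Kctd11 was at 96.9 to 100% and Bhlhe40 at 99.5 to 100% in the cultured libraries, and both were at 0% in naive libraries. The likeness is a description of these 9 values, which fall into 2 levels.

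Cdkn1b, which encodes p27, the CIP/KIP inhibitor best known for holding resting T cells out of the cycle, lies at chr6:134920401-134925525 and was covered at 100% in all 9 libraries. The peak over it had an authors' fold of 7.62, 7.51 and 8.59 in Th2 lists, 9.24, 7.20 and 8.06 in Th1 lists, and 5.73, 6.52 and 5.45 in naive lists. These folds too belong to their own lists and give no comparison between lists. Its promoter window was also covered at 100% in all 9 libraries. The noncoding neighbour Lockd was covered at 100% in Th2, 99.99% in Th1 and 99.8% in naive cells on average. The next coding gene upstream, Gpr19, an orphan receptor gene, was covered at 22.7, 31.8 and 32.6% in Th2 libraries, 13.5, 16.998 and 14.5% in Th1 libraries and 65.3, 59.7 and 70.7% in naive libraries.

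Cdkn1c, which encodes p57, the imprinted member of the CIP/KIP family, lies at chr7:143458339-143461059 and was at 0% in all 9 libraries. Its nearest peak was 56.1 to 58.7 kb away in every list. The 3 CIP/KIP genes thus stood at a level that differed between cultured and naive libraries (Cdkn1a), a level of 100% throughout (Cdkn1b) and a level of 0% throughout (Cdkn1c).

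Both INK4 members were marked in every library. Cdkn2d, which encodes p19 of the INK4 family, lies on the minus strand at chr9:21288459-21291421 and was covered at 100% in all 9 libraries. Kri1, a gene of ribosome assembly 0.49 kb away, lay under the same peak, which measured 20.1, 17.7 and 18.1 kb in Th2 libraries, 28.5, 21.4 and 21.1 kb in Th1 libraries and 31.4, 30.1 and 31.9 kb in naive libraries. On the side of Kri1 the peak reached 15.4, 13.1 and 13.4 kb beyond Cdkn2d in Th2 libraries and 23.9, 16.7 and 16.6 kb in Th1 libraries, against 26.4, 25.1 and 27.2 kb in naive libraries. On the other side it reached at most 2.09 kb beyond the gene in any list and ended before Ap1m2, 3.194 kb away. Cdkn2d itself was covered alike in all groups.

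Cdkn2c, which encodes p18 of the INK4 family, lies on the minus strand at chr4:109660876-109666756. It was covered at 100% in each Th2 library, at 100, 96.3 and 96.8% in Th1 libraries and at 100, 96.8 and 95.0% in naive libraries. The groups overlapped at 100%. The difference was 2.73 points in Th2 (adjusted p = 0.148, limma) and 0.40 points in Th1 (adjusted p = 0.859, limma), each against naive cells. The window of its upstream start was covered at 100% in 3 of 3 Th2 libraries, and at 100% in 1 library and 0% in the other two of both the Th1 and the naive group, whereas the window of its second start, 1.384 kb inside the gene, was covered at 100% in all 9. Cdkn2a and Cdkn2b, the other INK4 genes, belong to the longer list below and were at 0% in all 9 libraries.

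Among the kinases, Cdk6 showed the larger difference over the gene body, an order that turned with the genes extended by 2 kb at both ends (Cdk6 14.94 and Cdk4 23.30 points in Th2, Cdk6 15.87 and Cdk4 23.55 points in Th1, each against naive cells). CDK6 partners D cyclins early in G1 and is abundant in lymphocytes. The gene is the longest member at 190.005 kb, on the plus strand at chr5:3341004-3531008. It was covered at 93.8, 94.8 and 95.4% in Th2 libraries, 97.2, 95.2 and 94.4% in Th1 libraries, and 80.1, 81.5 and 79.6% in naive libraries. The cultured libraries lay above the naive ones without overlap.

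The Cdk6 means were 94.6 ± 0.818% in Th2, 95.6 ± 1.45% in Th1 and 80.4 ± 0.955% in naive cells (SD, n = 3 each). The difference was 14.23 points in Th2 (adjusted p = 1.65e-05, limma) and 15.15 points in Th1 (SE 1.02, adjusted p = 1.04e-05, limma), each against naive cells. It passed the adjusted p and not the minimum of 25 points, so the gene is not among the calls. Between Th2 and Th1 cells the difference was -0.92 points (adjusted p = 0.661, limma).

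The share of Cdk6 called as covered in naive cells depended on which peaks were kept. With peaks of −log10 q of at least 5 only, Cdk6 was covered at 92.9, 92.9 and 94.5% in Th2 libraries, 96.2, 92.7 and 93.4% in Th1 libraries, and 45.7, 46.0 and 48.4% in naive libraries. The difference then was 46.70 points in Th2 (adjusted p = 1.16e-07, limma) and 47.38 points in Th1 (adjusted p = 1.09e-07, limma), which passed both parts of the rule. With the covered length of all lists made equal by keeping the peaks of highest fold, it was 47.62 points in Th2 and 49.41 points in Th1 (adjusted p = 1.76e-08 and 1.38e-08, limma). In the first 5 kb from the start it was 3.39 points in both, so most of the difference lay outside those 5 kb.

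Along the gene, cut into 5 equal parts, parts 1 and 2 of Cdk6 were covered over at least 99.55% on average in every group. Part 3 was covered at 95.8 ± 1.26% in Th2, 96.8 ± 0.791% in Th1 and 72.2 ± 3.89% in naive cells. Part 4 was at 100% in Th2, 100% in Th1 and 79.6 ± 2.01% in naive cells, and part 5 at 77.4 ± 2.90% in Th2, 81.0 ± 6.52% in Th1 and 50.8 ± 5.23% in naive cells (SD, n = 3 each). In cultured libraries the called peaks thus covered more of the 3′ part of the gene.

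Cdk6 was also covered by fewer and longer peaks in cultured cells. It held 6, 7 and 5 peaks in Th2 libraries and 5, 6 and 6 in Th1 libraries, against 15, 21 and 17 in naive libraries. At the end of the gene the last 0.529, 1.82 and 0.64 kb held no peak in Th2 libraries and the last 0.78, 1.62 and 2.12 kb held none in Th1 libraries, against 14.1, 14.2 and 14.1 kb in naive libraries. Of 1445 genes of at least 100 kb, 19.03% had fewer peaks in Th2 than in naive libraries without overlap and 23.8% had fewer in Th1 than in naive libraries. Fewer peaks together with more covered length was seen in 1.80% of them in Th2 and 1.66% in Th1, each against naive libraries.

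The promoter window of Cdk6 (RefSeq, plus strand, chr5:3343643-3343942) was covered at 100% in all 9 libraries. The capitals in its sequence mark CACGTG, the E-box bound by MYC and MAX, which reads the same on both strands and lies at 220 bases before the start.
Cdk6: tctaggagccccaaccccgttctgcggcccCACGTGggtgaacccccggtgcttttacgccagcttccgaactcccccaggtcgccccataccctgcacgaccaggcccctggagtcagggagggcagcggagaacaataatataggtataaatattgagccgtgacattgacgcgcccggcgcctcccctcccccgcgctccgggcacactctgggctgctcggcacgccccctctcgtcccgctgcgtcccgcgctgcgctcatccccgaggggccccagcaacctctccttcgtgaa
Of all promoter windows, 7.91% hold CACGTG at least once. The noncoding gene Gm36470, which begins 51.024 kb before Cdk6 and ends 2.555 kb inside it, was covered at 69.2, 71.3 and 70.8% in Th2 libraries and 75.3, 62.8 and 45.9% in Th1 libraries, against 4.45, 4.42 and 4.50% in naive libraries. The start used for the promoter window lies 2.889 kb inside the annotated gene, and in naive libraries the first peak began 0.147 to 0.19 kb inside the gene. Over Gm36470 upstream of the annotated gene, peaks thus lay in the cultured libraries, whereas in naive libraries they began inside the gene. This neighbour too was chosen after its values were seen and was not tested.

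**Figure D3:**
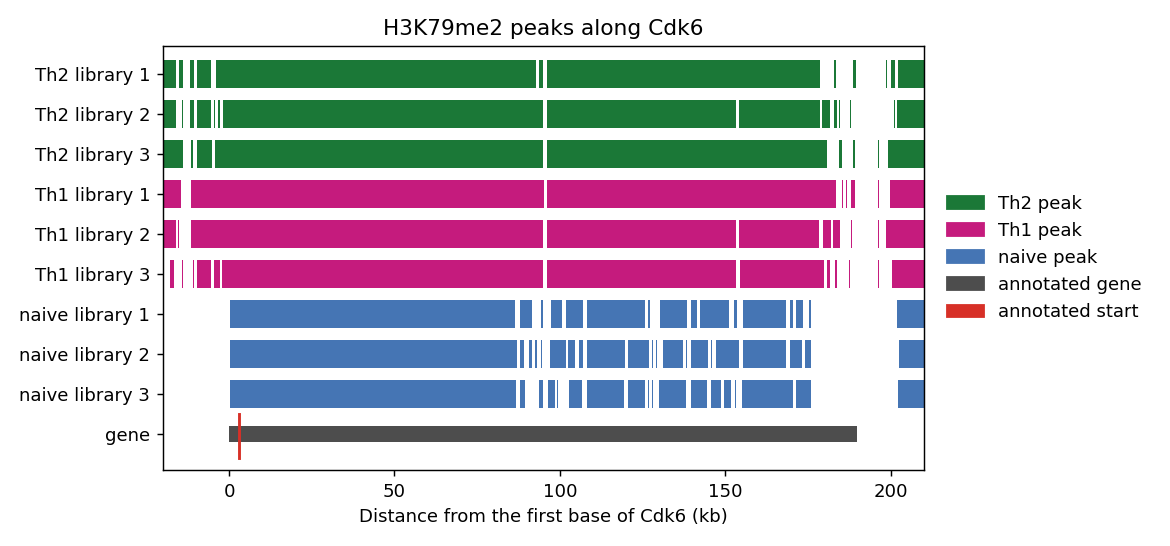
H3K79me2 peaks in each library over Cdk6, drawn against the distance in kb from the gene start, with Th2 libraries above Th1 libraries and naive libraries at the bottom. In the Th2 and Th1 libraries 5 to 7 peaks fill the gene, while in naive libraries the coverage breaks into 15 to 21 peaks and stops 14.1 to 14.2 kb before the gene end.

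Cdk4, the partner kinase of Cdk6, is a short gene of 3.754 kb on the plus strand at chr10:127063535-127067288. It was covered at 100, 100 and 99.7% in Th2 libraries, 100, 97.7 and 100% in Th1 libraries, and 97.1, 95.0 and 91.9% in naive libraries. The groups did not overlap, although the lowest Th1 value lay close to the highest naive value. The difference was 5.26 points in Th2 (adjusted p = 0.0110, limma) and 4.56 points in Th1 (adjusted p = 0.0204, limma), each against naive cells, below the minimum of 25 points. With the gene extended by 2 kb it was 23.30 points in Th2 (adjusted p = 0.0432, limma) and 23.55 points in Th1 (adjusted p = 0.0413, limma). Cdk4 overlaps Tspan31, a tetraspanin gene, so its values cannot be assigned to 1 gene alone. Tspan31 was at 100% in all 6 cultured libraries and at 69.0, 26.7 and 100% in naive libraries.

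The Cdk4 difference lay at the 5′ end, where at most the first 0.01 kb in Th2 libraries and 0.088 kb in Th1 libraries held no peak, against 0.109, 0.189 and 0.304 kb in naive libraries. The promoter window (RefSeq, plus strand, chr10:127063285-127063584) was covered at 100, 24.7 and 13.3% in Th2 libraries, 100, 0 and 100% in Th1 libraries and 0% in each naive library. Its sequence is shown because it holds CACGTG 4 times, at 172, 118, 98 and 11 bases before the start, in capitals.
Cdk4: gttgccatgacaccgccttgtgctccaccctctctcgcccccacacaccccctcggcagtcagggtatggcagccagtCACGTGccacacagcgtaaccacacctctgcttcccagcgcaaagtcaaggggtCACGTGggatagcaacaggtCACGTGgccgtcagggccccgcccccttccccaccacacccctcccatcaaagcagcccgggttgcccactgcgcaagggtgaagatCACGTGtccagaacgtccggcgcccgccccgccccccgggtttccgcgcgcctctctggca
Of 21045 promoter windows, 0.756% hold CACGTG at least 2 times and 0.0238% at least 4 times. The window also holds 3 GC boxes, left in lower case. Besides Cdk4 and Cdk6, the window of the second Cdkn2c start holds CACGTG once, and no other window of a member does. Whether MYC or another factor is bound there was not measured.

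The D cyclins, which sense mitogenic signals and set the activity of CDK4 and CDK6, differed from each other more than between groups. Ccnd2, a D cyclin of lymphocytes, lies at chr6:127125162-127152188 and was covered at 81.9, 77.5 and 82.5% in Th2 libraries, 80.8, 80.8 and 80.3% in Th1 libraries and 82.3, 79.2 and 83.9% in naive libraries. The 3 groups overlapped, and in 8 of the 9 libraries a stretch of 4.384 to 5.367 kb at the end of lower coordinate held no peak (1.997 kb in naive replicate 3). The difference was -1.15 points in Th2 (adjusted p = 0.596, limma) and -1.18 points in Th1 (SE 1.74, adjusted p = 0.599, limma), each against naive cells. The authors' fold of the strongest peak over Ccnd2 was 7.01, 7.51 and 7.68 in Th2 lists, 7.77, 6.18 and 6.39 in Th1 lists and 5.43, 5.87 and 5.36 in naive lists. Such folds give no comparison between lists, and those of Ccnd3, given below, were highest in naive lists.

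The noncoding gene 9330179D12Rik overlaps Ccnd2 and runs away from it over 63.031 kb. It was covered at 42.8 ± 0.989% in Th2, 10.6 ± 1.78% in Th1 and 21.6 ± 2.19% in naive cells (SD, n = 3 each). Its order of groups was Th2, naive and Th1, with no overlap between them, in contrast to Ccnd2 itself. It was chosen after its values were seen and was not tested.

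Ccnd3, the D cyclin of thymocytes and many other lymphoid cells, covers 94.639 kb on the plus strand at chr17:47505051-47599689. It was covered at 96.7, 99.2 and 96.2% in Th2 libraries, 100, 99.2 and 100% in Th1 libraries and 100% in each naive library. The Th2 values lay below the naive ones without overlap. The difference was -2.64 points in Th2 (adjusted p = 0.0327, limma), below the minimum of 25 points, and -0.27 points in Th1 (adjusted p = 0.833, limma), each against naive cells. With libraries centred, both turned to higher values, 5.06 points in Th2 and 7.97 points in Th1. Ccnd3 overlaps Bysl, a ribosome assembly gene, which makes its values uncertain.

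The uncovered stretches of Ccnd3 in Th2 lay mainly in the last of 5 equal parts, which was covered at 88.1, 96.1 and 80.8% in Th2 libraries, 100, 95.9 and 100% in Th1 libraries and 100% in each naive library. The gene held 4, 2 and 4 peaks in Th2 libraries, 1, 2 and 1 in Th1 libraries and 1 in each naive library. The promoter windows of both annotated starts, 88.416 kb apart, were covered at 100% in all 9 libraries. The longest peak over Ccnd3 measured 83.0, 85.8 and 89.8 kb in Th2 libraries, 132, 85.0 and 134 kb in Th1 libraries and 168, 116 and 116 kb in naive libraries.

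The peak over the Ccnd3 start reached less far upstream in cultured libraries. It extended 8.75, 8.74 and 10.4 kb before the Ccnd3 start in Th2 libraries and 8.65, 1.29 and 10.4 kb in Th1 libraries, against 19.97, 20.29 and 20.24 kb in naive libraries. In Th1 replicate 2 a further peak, from -8.737 to -2.089 kb relative to the start, lay beyond a short gap. Separate shorter peaks lay still farther upstream in libraries of each group and are not part of these distances. Taf8, a gene of the general transcription factor TFIID 2.73 kb away, was covered at 31.8, 39.5 and 46.1% in Th2 libraries, 48.0, 39.1 and 60.4% in Th1 libraries and 92.9, 92.6 and 92.4% in naive libraries.

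**Figure D4:**
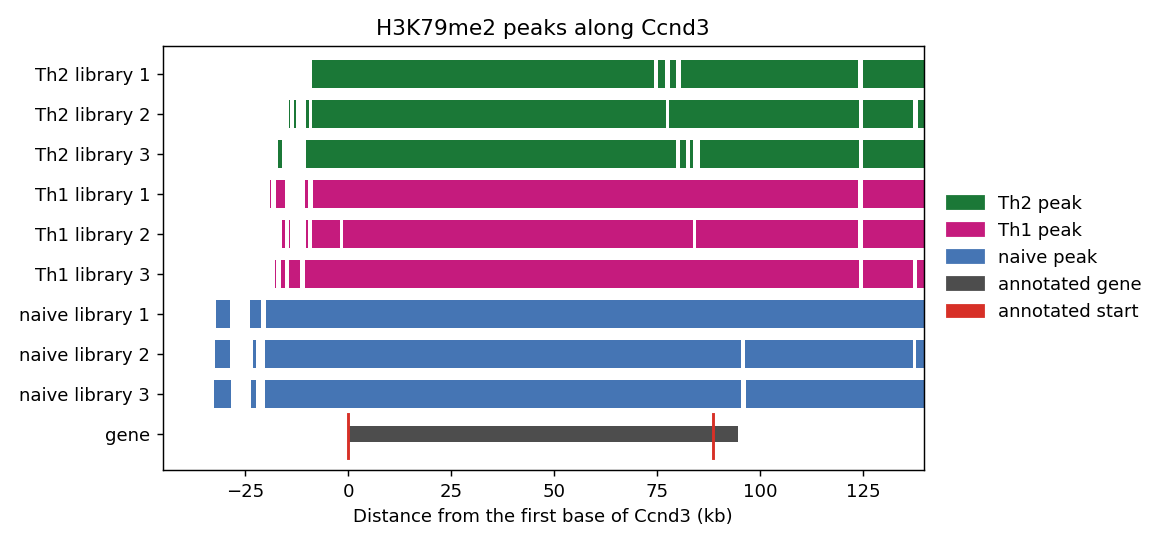
H3K79me2 peaks in each library over Ccnd3, drawn against the distance in kb from the gene start, with Th2 libraries above Th1 libraries and naive libraries at the bottom. The breaks in Th2 libraries lie towards the end of the gene, while a single peak covers the gene in naive libraries and reaches 19.97 to 20.29 kb before the start.

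Ccnd1, the D cyclin of many adherent cell types, lies at chr7:144929931-144939831 and was at 0% in all 9 libraries. The nearest peak was 12.2, 11.4 and 11.4 kb away in Th2 libraries and 12.3, 5.96 and 9.81 kb in Th1 libraries, against 1.42, 1.02 and 1.39 kb in naive libraries. Ccnd1 overlaps LTO1, a gene of ribosome assembly, which was covered at 15.6, 20.4 and 20.6% in Th2 libraries, 15.4, 19.5 and 19.4% in Th1 libraries and 64.6, 78.8 and 76.2% in naive libraries. The part of LTO1 shared with Ccnd1 held no peak in any list. With the gene extended by 2 kb at both ends, the peak close to Ccnd1 in naive cells entered the measure, and the difference was -5.20 points in both comparisons with naive cells.

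The wider G1/S list, chosen around the members and holding no member, had 34 genes of the retinoblastoma and E2F families, cyclin E and its kinase, the CDK-activating kinase, degradation factors and regulators. Of these 29 were tested. In Th2 against naive cells 0 were called higher and 5 lower (Rb1, Rbl2, E2f8, Cdk7 and Fzr1), and in Th1 against naive cells 0 were called higher and 3 lower (Rb1, Tfdp2 and Cdk7). Over all tested genes 15.4% were called lower in Th2 and 16.3% in Th1, so the list's counts lay near or below the background. The split also turned with the scaling. At equal covered length the list had 1 higher (Cdkn3, 32.22 points) and 2 lower in Th2, and 3 higher (Cdkn3 with 34.86, E2f7 with 31.05 and Gsk3b with 25.5 points) and 0 lower in Th1. With −log10 q of at least 5 it had 1 higher and 2 lower in both comparisons. Its median difference was -9.25 points in Th2 and -9.13 points in Th1, beside -5.50 and -5.54 points over all tested genes. Between Th2 and Th1 cells limma called 0 genes of the list, beside 3.64% of all tested genes. At least 75% coverage in all 9 libraries was found in 12 of the 34 genes, or 35.3%, against 7 of the 10 members.

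The largest difference on that list was in Rb1, which encodes the retinoblastoma protein, the substrate of the D cyclin kinases. Rb1 was covered at 50.2, 46.9 and 49.8% in Th2 libraries, 55.3, 48.6 and 51.6% in Th1 libraries and 88.8, 87.8 and 91.1% in naive libraries. It fell by 40.29 points in Th2 cells (adjusted p = 2.90e-06, limma) and fell by 37.40 points in Th1 cells (adjusted p = 3.82e-06, limma), each against naive cells. With the covered length made equal the Th1 difference was -21.4 points and the call ended, while the Th2 call held under every alternative run for Rb1, with -30.39 points at equal covered length. Rb1 has no strand in the promoter table and was not measured in the 5 kb from its start.

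Rbl2, which encodes the related pocket protein p130 of resting cells, was covered at 26.1 ± 1.08% in Th2, 31.2 ± 2.25% in Th1 and 55.1 ± 2.27% in naive cells. It fell by 28.94 points in Th2 cells (adjusted p = 7.93e-06, limma). That call ended with −log10 q of at least 5 (-18.0 points), at equal covered length (-14.91 points), with libraries centred (-21.25 points) and in the first 5 kb (-1.77 points). In Th1 cells the difference of -23.86 points (adjusted p = 1.87e-05, limma) stayed below the minimum. It was called without Th1 replicate 1 or without naive replicate 1 (-25.12 and -25.17 points). With the gene extended by 2 kb it was called as well (-25.02 points). Tfdp2, which encodes an E2F partner, was covered at 27.3 ± 3.35% in Th2, 13.5 ± 2.38% in Th1 and 48.6 ± 4.17% in naive cells, and it fell by 35.15 points in Th1 cells (adjusted p = 1.81e-05, limma). With the covered length made equal, Tfdp2 turned to 5.68 points in Th1. The Th1 call also ended with −log10 q of at least 5 (-1.86 points) and in the first 5 kb (-1.74 points). In Th2 cells the Tfdp2 difference of -21.38 points (adjusted p = 0.000269, limma) stayed below the minimum and turned to 13.51 points at equal covered length. It was called only when measured from the most downstream annotated start (-27.41 points), a setting chosen after seeing the data.

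Cdk7, the kinase of the CDK-activating complex, was covered at 38.9 ± 2.66% in Th2, 41.5 ± 6.17% in Th1 and 72.5 ± 8.07% in naive cells. It fell by 33.65 points in Th2 cells (adjusted p = 0.000462, limma) and fell by 30.98 points in Th1 cells (adjusted p = 0.00069, limma). Both calls ended with peaks of −log10 q of at least 5 (-9.1 and -8.8 points) and at equal covered length (-8.67 and -4.93 points). They also ended in the first 5 kb (-1.71 and -0.62 points), and the Th1 call ended with libraries centred (-22.74 points). Fzr1, an activator of the anaphase-promoting complex, was covered at 67.0 ± 9.71% in Th2, 81.5 ± 14.5% in Th1 and 100 ± 0% in naive cells, and fell by 33.03 points in Th2 cells (adjusted p = 0.00596, limma). The Fzr1 call in Th2 ended in the first 5 kb (-0.11 points) and held under the other alternatives. In Th1 cells the Fzr1 difference of -18.51 points (adjusted p = 0.0645, limma) was not called, except without Th1 replicate 1 (-26.4 points). E2f8, a repressor of E2F targets, was covered at 48.5 ± 3.61% in Th2, 59.9 ± 12.5% in Th1 and 75.4 ± 2.52% in naive cells and fell by 26.88 points in Th2 cells (adjusted p = 0.00453, limma). The E2f8 call ended without Th2 replicate 1 (-24.88 points), with the covered length made equal (-2.5 points) and with −log10 q of at least 5 (-4.99 points). It also ended with peaks joined (-13.64 points), the gene extended by 2 kb (-16.86 points) and libraries centred (-19.18 points). In the first 5 kb the E2f8 difference was 1.71 points. All values are means with SD over 3 libraries.

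In the gene body, some genes of the list lay higher in cultured cells without reaching the minimum of 25 points. Ccne1, which encodes cyclin E1, the activator of CDK2 that follows the D cyclins, was covered at 85.4, 99.5 and 97.7% in Th2 libraries, 95.0, 94.3 and 99.6% in Th1 libraries and 78.1, 82.3 and 80.6% in naive libraries. The naive libraries all lay below the cultured ones. The difference was 13.89 points in Th2 (adjusted p = 0.0118, limma) and 15.98 points in Th1 (adjusted p = 0.00607, limma), and in the first 5 kb it was 35.79 points in Th2 and 36.05 points in Th1, which passed both parts of the rule. With the gene extended by 2 kb at both ends, the Ccne1 difference turned to -3.69 points in Th2 (adjusted p = 0.418, limma) and -0.71 points in Th1 (adjusted p = 0.903, limma). Tfdp1, which encodes the main E2F partner, was covered at 94.4% in Th2, 95.4% in Th1 and 83.6% in naive cells on average, a difference of 10.81 points in Th2 (adjusted p = 0.000232, limma) and 11.73 points in Th1 (adjusted p = 0.000145, limma). Cdk2, Cks1b and Myc were at 100% in all 9 libraries.

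**Figure D5:**
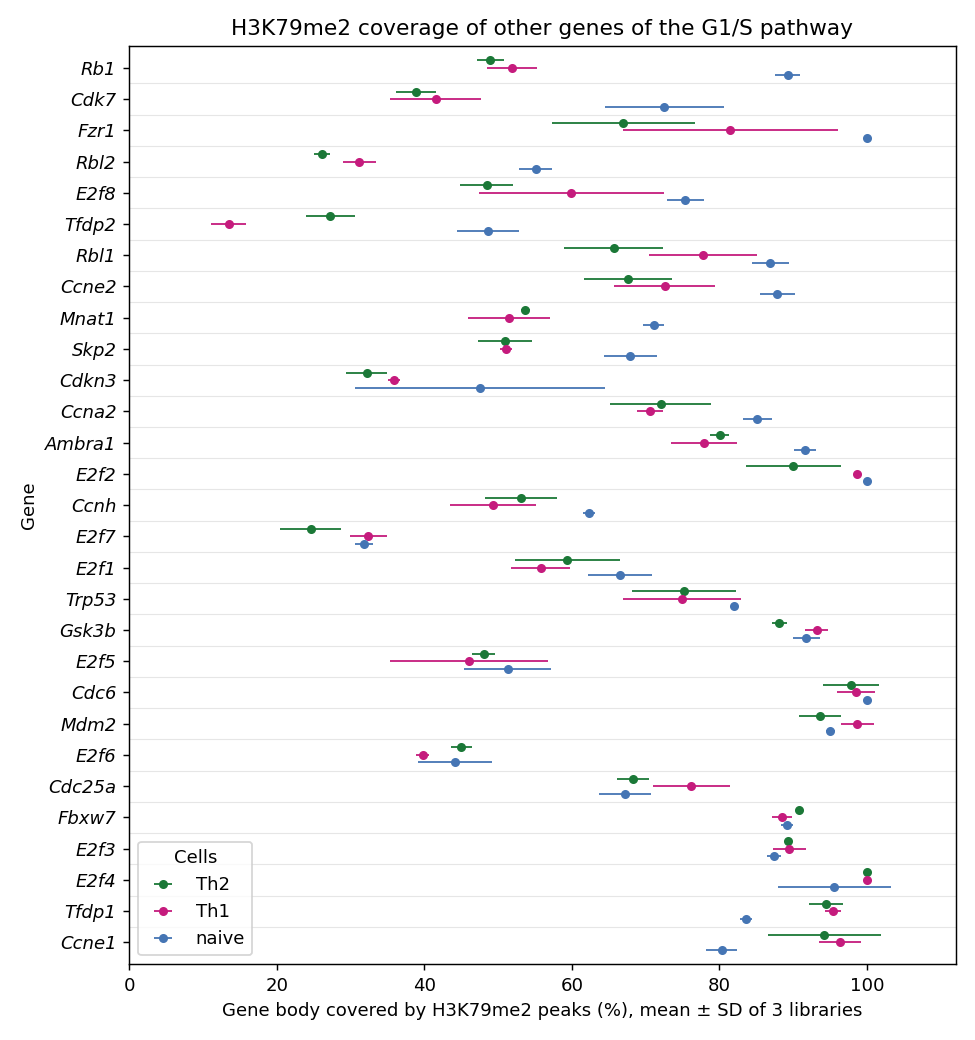
Mean percent covered for the genes of the G1/S list, with Th2, Th1 and naive cells marked for each gene and bars for the SD over 3 libraries. Rb1, Rbl2, Tfdp2, Cdk7, E2f8 and Fzr1 lie lower in Th2 or Th1 cells than in naive cells.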

How the data were processed

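Per the labels, 9 H3K79me2 libraries (3 each of Th2, Th1 and naive cells) and 9 inputs were made. The inputs have no peak list here and entered no test. The authors deposited 1 broad peak list per library, so peaks were called separately in each. Tools named in the submitters' processing notes are MACS2, Bowtie2, SAMtools and Picard, with the build mm10. Their versions and settings, and how inputs were used, are not given in the sources used here. The deposited columns are a position, a score (10 times the −log10 q value, truncated, for all but 1 to 5 peaks of each list), a fold enrichment ratio, and −log10 p and −log10 q values, all of which belong to a peak within its list and served here to rank or filter it there. The authors' score, ratio and −log10 values were not compared between lists.

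Peaks were merged and the percent of each gene body covered was computed with Python 3.11.15 for 21631 protein-coding genes of the RefSeq table (GRCm38.p6), of which 17274 have a strand in the promoter table. Genes whose value was identical throughout were dropped, and 11600 were tested with limma 3.58.1 in R 4.3.3 on percent covered, with 1 fit of all 3 groups, a variance trend and Benjamini-Hochberg adjustment over all tested genes. To be called, a gene needed an adjusted p under 0.05 together with 25 points or more of difference. The fit was also run on simulated data with independent normal scatter cut off at 0 and 100%. Real coverage can jump between these limits, so that run is not used here as support for any p-value. The 10 genes, the G1/S list and the markers were chosen with earlier results of these data known. Named genes are the members, called genes of the G1/S list, the 3 genes most like each called member and neighbours. LTO1, Tspan31, Bysl, Gpr19, Ap1m2, Taf8, Kri1, Srsf3 and Rab44 are such neighbours, and Ccne1, Tfdp1, Cdkn3, E2f7, Gsk3b and the G1/S genes at 0 or 100% throughout were named after their values were seen. Alternatives covered the peak filter, joined peaks, the part of the gene, the gene filter, centring, the variance model, the samples fitted, the replicate block and each library left out. Measuring from the most downstream start was chosen after seeing the data. 1 gene of the marker lists is not reported here.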

Additional observations from a re-analysis of the deposited data

How the results depend on the processing

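Counts over all genes stayed within 1.5 times in every alternative run except the first 5 kb from the start, which gave 1385 calls in Th2 (471 higher, 914 lower) and 1533 in Th1 (456 higher, 1077 lower) against naive cells. That setting tested 7111 genes, against 11600 in the main run, so its counts come from fewer genes. Peaks of −log10 q of at least 5, and equal covered length, each gave 2 members called in both comparisons with naive cells, with Cdk6 added to Cdkn1a. Between Th2 and Th1 cells the split was 241 higher and 181 lower, against 167 higher and 224 lower at equal covered length and 144 higher and 174 lower with −log10 q of at least 5. On the G1/S list, Th2 against naive cells had 3 calls with −log10 q of at least 5, 3 at equal covered length, 3 with libraries centred and 1 in the 5 kb window. In that window 17 genes of the list were tested, against 29 in the main run. Without each library in turn, the count of the G1/S list in Th1 against naive cells ran between 3 and 5 (5 without Th1 replicate 1).

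Small differences changed sign. In Th2 against naive cells Ccnd2 was 1.05 points with −log10 q of at least 5 and at equal covered length, 0.20 with the gene extended by 2 kb, 6.54 with libraries centred and between -2.46 and 0.44 without 1 library (0.44 without Th2 replicate 2), and Ccnd3 was 5.06 with libraries centred. In Th1 against naive cells Ccnd2 was 0.55 with −log10 q of at least 5, 1.56 at equal covered length, 0.60 with peaks joined and 7.07 centred, Ccnd3 was 0.24 extended and 7.97 centred, and Cdkn2c was -0.34 extended and between -0.77 and 1.76 without 1 library (-0.77 without Th1 replicate 1, -0.74 without naive replicate 3). In Th2 against Th1 cells Ccnd2 was -0.51 at equal covered length, -1.92 with peaks joined, -0.52 centred and between -0.92 and 1.61 without 1 library (below 0 without Th2 replicate 1 or 3 or Th1 replicate 3), and Cdk4 was -0.25 extended and between -0.089 and 1.08 without 1 library (-0.089 without Th1 replicate 2). The cause was not tested.

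Libraries of the same replicate number were no more alike in their deviations from group means. These correlated at -0.0744 to 0.00143 for the same number and -0.0261 to 0.0696 for different numbers. With so few libraries per group, this cannot decide whether libraries of the same number share an animal or a preparation. With the replicate block, 2261, 2383 and 393 genes were called in Th2 against naive, Th1 against naive and Th2 against Th1, with 1, 1 and 0 members and 5, 3 and 0 genes of the G1/S list. The 5 kb window could not be measured for Ccnd1, Ccnd2 and Cdkn1c. Depth is unknown, so a gene at 0% may carry the mark below what a library could detect.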
